A study of Rattus norvegicus with 26 samples.

Results

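The insulin-like growth factor (IGF) axis was followed during the differentiation of rat multipotent adult progenitor cells (rMAPCs) towards smooth muscle cells (SMCs). Its 10 listed genes were the ligands Igf1 and Igf2, the receptors Igf1r and Igf2r, and the binding proteins Igfbp2 to Igfbp7. A gene was counted when a gene probe of the array carried its symbol, and the probe with the highest mean log2 value over the 26 arrays was used. This found 9 of the 10 genes, on 15 of the 41012 gene probes, and all 9 chosen probes were among the 24442 probes tested. No probe was named Igfbp7. One further probe, described on the array as similar to mac25 and carrying the NCBI gene number that RefSeq gives for Igfbp7, is described separately and is in no count of members.

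The cells were 2 Oct4-expressing clonal rMAPC lines, Cl19 and 3c3, derived from the bone marrow of female Fischer rats aged 3 weeks. Each line was profiled on d0, as undifferentiated cells, and on d2, d4 and d6 of culture without serum in the presence of the growth factors TGFβ1 and PDGF-BB. Every day of each line has 3 arrays. The comparison cells were primary rat aortic SMCs, for which purchased RNA was hybridised to 2 arrays. Every differentiating array carried both growth factors, so no array shows the medium or either factor alone, and each line is a single clone. The study's methods call the 3 arrays of a time point biological replicates, without saying how the cultures were kept apart. Whether the 2 SMC arrays are separate RNA preparations is not given in the sources used here, so the spread between them may be technical.

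IGF-I and IGF-II are secreted peptides that signal through the tyrosine kinase receptor encoded by Igf1r, whereas the product of Igf2r binds IGF-II and carries it to lysosomes. The IGF-binding proteins hold both ligands in the extracellular fluid, and depending on the protein and on the proteases that cut it they block or prolong ligand action. In vascular smooth muscle the axis is known for its part in growth, survival and matrix synthesis.

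The share of gene features well above background was 52.7 to 61.4% on Cl19 arrays, 43.2 to 57.1% on 3c3 arrays and 43.6 to 44.5% on SMC arrays, and no feature was saturated. The number of arrays limits the precision of every value. Each of the 7 slides held 1 replicate of 1 line or the primary cells, and the lines and the primary cells were scanned on 3 separate days, so scan day and cell source cannot be told apart for levels. The array labelled Cl19 d2 replicate 1 stood nearer to the 3c3 d2 arrays (root mean square difference 0.38 to 0.54 on the log2 scale over the tested probes) than to the other Cl19 d2 arrays (0.88 and 0.92). Values of Cl19 d2 for the members are therefore given array by array or with and without it. The F-tests over time, the Igfbp1 means and the correlations of group means below include this array. On d0, Pou5f1, which encodes Oct4, had mean log2 levels of 10.28 in Cl19 and 11.53 in 3c3. In the primary SMCs all 7 smooth muscle markers with a probe were well above background on both arrays.

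The probe sequences below show what was hybridised for the binding proteins and the receptor on which the results turn. Each is the 60-base probe sequence on the array, written 5′ to 3′, and capitals mark the 12 bases that the Igfbp6 probe and the second Igfbp3 probe have in common, the longest run shared by any pair of the 4. The other pairs share runs of 5 to 7 bases. The positions on the rn4 build, as the scanner files give them, are chr9:71967157-71967216 on the plus strand for Igfbp2, chr7:140888422-140888481 on the plus strand for Igfbp6, chr14:87961611-87962505 on the minus strand for the second Igfbp3 probe, and chr1:122989150-122989209 on the plus strand for Igf1r. The Igfbp3 probe spans 895 bases of the genome, so it crosses a splice junction. Each of these 4 probes has at least 1 reading frame without a stop codon.
Igfbp2: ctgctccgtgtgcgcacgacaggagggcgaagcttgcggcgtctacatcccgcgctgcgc
Igfbp6: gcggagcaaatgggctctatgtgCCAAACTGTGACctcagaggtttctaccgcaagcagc
Igfbp3: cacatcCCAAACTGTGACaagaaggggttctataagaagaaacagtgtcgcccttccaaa
Igf1r: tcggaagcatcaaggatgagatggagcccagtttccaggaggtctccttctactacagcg

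The other chosen probes lie at chr7:24604715-24604774 (Igf1), chr1:202906641-202906700 (Igf2), chr1:42340766-42340825 (Igf2r), chr14:87960494-87960553 (Igfbp3), chr10:87834213-87834272 (Igfbp4), chr9:72000312-72000371 (Igfbp5) and, outside the rule, chr14:33067515-33067574 (Igfbp7), all on rn4. Exon annotation of that build was not used here.

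By d6 the axis had changed in both lines, and the binding proteins moved in opposite directions. Transcript levels of Igf1r, Igfbp2 and Igfbp6 rose in Cl19 and in 3c3, and those of Igf1 and Igfbp3 fell in both. Igf2 and Igfbp5 rose in Cl19, and Igf2r rose in 3c3. Igfbp4 fell in Cl19. In Cl19, 5 of the 9 members were higher on d6 than on d0, against 22.0% of all tested probes, and 3 were lower, against 30.3% (limma, Benjamini-Hochberg adjusted p under 0.05 over all tested probes). In 3c3, 4 members were higher, against 19.7% of tested probes, and 2 were lower, against 28.6%. Igfbp5 passed the filter on dim probes only through d4 and d6 of Cl19, where it was high. The median d6 change of the 9 members was 1.97 on the log2 scale in Cl19 and 1.69 in 3c3, beside −0.20 and −0.21 over all tested probes. Several sizes below are also given with normexp, a background correction that adds a fixed offset and so shrinks the changes of dim probes. Over the whole time course 8 members changed in Cl19, against 54.3% of tested probes, and 7 in 3c3, against 50% (F-test over d0, d2, d4 and d6). The member without such a call was Igf2r in Cl19 (adjusted p = 0.059), and those in 3c3 were Igf2 (adjusted p = 0.19) and Igfbp5, which was not well above background on any 3c3 array.

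**Figure D1:**
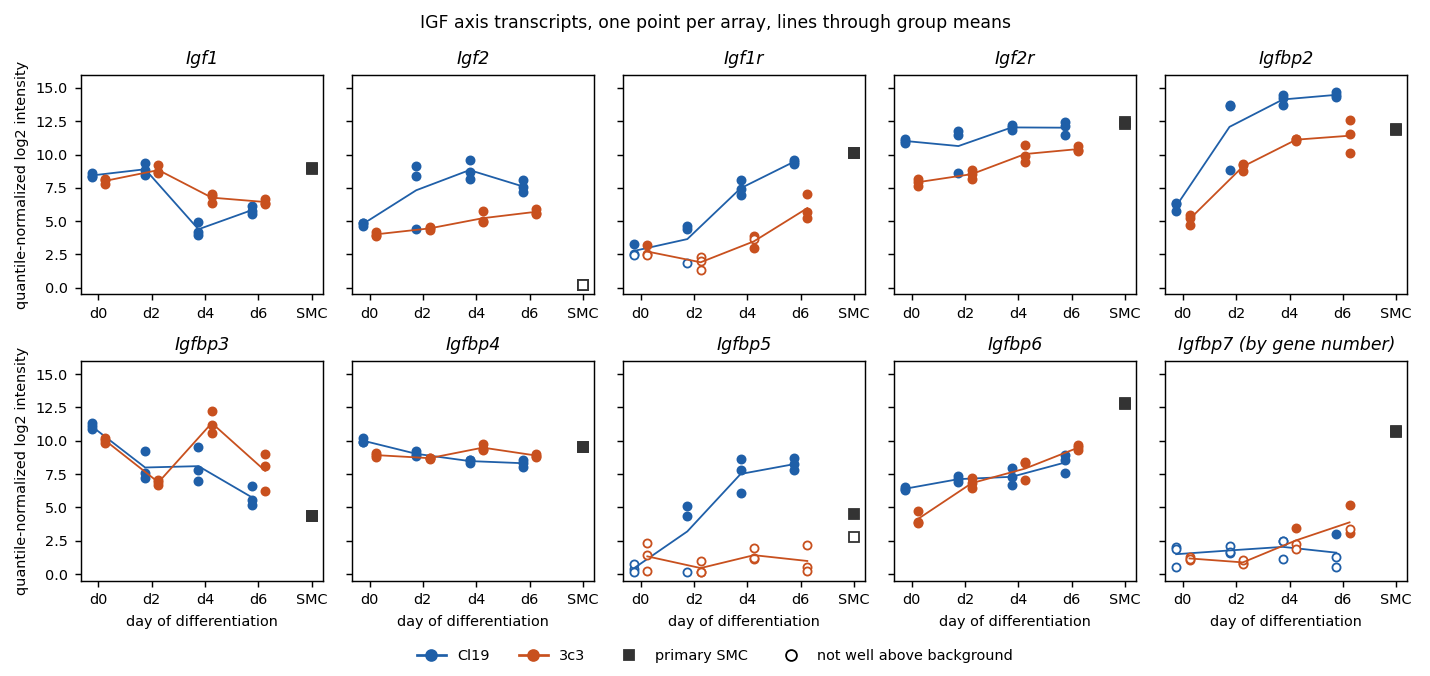
Quantile-normalized log2 intensity of the probe used for each gene by day of differentiation, with 1 point per array for Cl19 and 3c3 (3 arrays per day) and 2 for primary SMC, lines through group means, and open symbols where the probe was not well above background. Igfbp2 and Igf1r climb in both lines, Igfbp5 climbs in Cl19 alone among the rMAPC lines, and Igf2 is not well above background on either SMC array. One Cl19 d2 point lies with 3c3 for Igf2, Igf2r and Igfbp2.

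Igf2 encodes the ligand best known from fetal growth. In Cl19 its log2 level was 4.67, 4.86 and 4.84 on the d0 arrays, 4.40, 8.41 and 9.15 on d2, 9.61, 8.19 and 8.69 on d4, and 7.16, 8.09 and 7.56 on d6. All d4 and d6 arrays lay above all d0 arrays, and on d2 the low value was that of the array that stood nearer to 3c3. The d6 change was 2.82 on the log2 scale (SE 0.73, adjusted p = 0.0029), a 7.05-fold rise, and with normexp it was 1.54 (adjusted p = 0.0067). At d2 the change was 2.53 with all arrays (adjusted p = 0.016) and 3.99 without the low one (adjusted p = 8e-08). In 3c3 the levels were 4.20, 3.91 and 3.93 on d0, 4.53, 4.37 and 4.47 on d2, 5.78, 4.91 and 4.98 on d4, and 5.94, 5.55 and 5.62 on d6. The d6 arrays lay above the d0 arrays and the paired differences within slides were 1.74, 1.64 and 1.69, yet the change of 1.69 (SE 0.73, 95% interval 0.17 to 3.22) had an adjusted p of 0.063 in the fit over all arrays. The SE in that fit is shared with Cl19 d2. With the array labelled Cl19 d2 replicate 1 left out, the SE fell to 0.31 and the adjusted p to 0.00016. With normexp the 3c3 change was 0.59 (adjusted p = 0.30).

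Igf1 encodes the other ligand, which mesenchymal cells and liver secrete, and its transcript went the other way. Cl19 had log2 levels of 8.60, 8.28 and 8.40 on d0 and 9.38, 8.83 and 8.47 on d2. They then dropped to 4.00, 4.97 and 4.20 on d4 and stood at 6.17, 5.74 and 5.57 on d6. The d4 and d6 groups did not overlap each other or the earlier days, with a d4 change of −4.04 (SE 0.26, adjusted p = 6.1e-10), a d6 change of −2.60 (SE 0.26, adjusted p = 1e-07) and a rise of 1.43 from d4 to d6 (adjusted p = 0.0022). In 3c3 the levels were 8.11, 8.15 and 7.80 on d0, 8.71, 9.20 and 8.59 on d2, 7.07, 6.86 and 6.37 on d4 and 6.63, 6.28 and 6.39 on d6. Here the level first rose by 0.81 at d2 (adjusted p = 0.035) and was then 1.59 lower on d6 than on d0 (SE 0.26, adjusted p = 5.7e-05). These changes are 6.07-fold and 3.00-fold falls from d0 to d6 in Cl19 and 3c3. With normexp the Cl19 change was −1.77.

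The 4 Igf1 probes did not agree. The probe used lies farthest downstream, and the other 3 lie near the start of the gene. One of these, at chr7:24533750-24533809, matches the RefSeq promoter window of Igf1 whole, from 71 to 12 bases before the annotated start. It had group means of 2.84 to 3.60 on every day in both lines and 6.80 in primary SMC, and its d6 changes of −0.56 and −0.47 in Cl19 and 3c3 were not past the threshold (adjusted p = 0.20 and 0.30). The next probe begins at the adjoining base, chr7:24533810, and crosses a junction. It followed the used probe in Cl19, with a d6 change of −2.06 (adjusted p = 0.0029), but was not well above background on either SMC array. A probe that spans a junction from chr7:24531970 to chr7:24537063 had group means of 1.91 to 3.50 in the lines and 5.0 in primary SMC, with no call at d6 (adjusted p = 0.86 in Cl19 and 0.62 in 3c3). The fall of Igf1 therefore rests on 2 of its 4 probes in Cl19 and on 1 in 3c3.

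**Figure D2:**
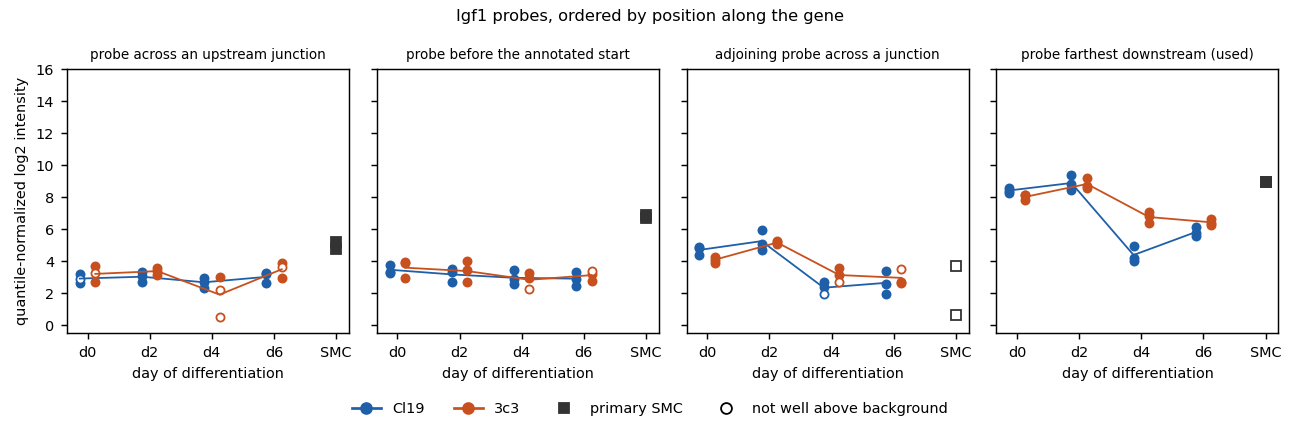
Quantile-normalized log2 intensity of the 4 Igf1 probes, ordered by position along the gene, by day for Cl19 and 3c3 and for primary SMC, with 1 point per array, lines through group means and open symbols where not well above background. The line means fall after d2 in the 2 right panels. In the 2 left panels primary SMC stands above every line mean.

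Igf1r encodes the signalling receptor, and its transcript rose by 6.69 on the log2 scale in Cl19 and by 3.25 in 3c3. On the Cl19 arrays it was at 2.50, 2.51 and 3.29 on d0, 1.89, 4.41 and 4.67 on d2, 6.96, 7.39 and 8.06 on d4 and 9.31, 9.61 and 9.45 on d6. The 3c3 arrays gave 3.18, 2.55 and 2.44 on d0, 2.34, 1.37 and 2.03 on d2, 3.87, 2.96 and 3.63 on d4 and 7.04, 5.23 and 5.65 on d6. In both lines all d6 arrays lay above all d0 arrays, although the probe was well above background on only 2 of the 3 d0 arrays of each line and on none of the 3c3 d2 arrays. The d6 changes had an SE of 0.56 and adjusted p of 9.1e-09 and 8.8e-05, and as folds they were 103 and 9.55. These folds stand over dim d0 groups, and with normexp the changes were 3.34 in Cl19 and 0.87 in 3c3, both still past the threshold (adjusted p = 4.1e-11 and 7e-04). In Cl19 the d4 level was already 4.70 above d0 (adjusted p = 1.3e-06). In 3c3 the d4 change was 0.77 (adjusted p = 0.30), and the rise from d4 to d6 was 2.49 (adjusted p = 0.0080).

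Igf2r encodes the clearance receptor of IGF-II. In 3c3 its level went from 8.19, 7.65 and 7.94 on d0 over 8.81, 8.20 and 8.57 on d2 and 9.47, 10.72 and 9.92 on d4 to 10.33, 10.66 and 10.24 on d6. The d6 change was 2.48 (SE 0.53, adjusted p = 0.00069), a 5.59-fold rise with no overlap between d0 and d6. In Cl19 the d0 arrays already stood at 10.89, 11.03 and 11.13 and the d6 arrays at 11.48, 12.43 and 12.13. These groups did not overlap either, but the change of 1.00 (SE 0.53) was not past the threshold (adjusted p = 0.12). It passed with the array labelled Cl19 d2 replicate 1 left out (SE 0.27, adjusted p = 0.0048), an array on which Igf2r was at 8.63 while the other Cl19 d2 arrays were at 11.80 and 11.47.

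Igfbp2 encodes a binding protein that fetal tissues and liver secrete in quantity, and its transcript rose steeply in both lines. Cl19 went from 5.74, 6.31 and 6.34 on d0 to 8.86, 13.66 and 13.71 on d2, 13.73, 14.44 and 14.22 on d4 and 14.33, 14.43 and 14.66 on d6. In 3c3 the arrays read 5.44, 4.74 and 5.26 on d0, 9.25, 8.75 and 9.30 on d2, 11.20, 10.98 and 11.15 on d4 and 12.60, 10.10 and 11.53 on d6. No array of d2, d4 or d6 overlapped d0 in either line. The d6 change was 8.35 in Cl19 (SE 0.83, adjusted p = 8.5e-08) and 6.26 in 3c3 (SE 0.83, adjusted p = 5e-06), which are 326-fold and 76.8-fold. With normexp these changes were 7.34 and 4.80. Most of it was present by d2, at 5.95 in Cl19 (7.55 without the array near 3c3) and 3.95 in 3c3, and from d4 to d6 the change was 0.35 and 0.30 (adjusted p = 0.93 and 0.89). Igfbp2 is in a gene list that the study drew from these same samples, so its direction there is not independent evidence.

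The 250 bases before the annotated Igfbp2 start, chr9:81864561-81864810 on the plus strand of GRCr8 in RefSeq, are shown because this transcript rose steeply in both lines. Capitals mark the only match to the GC box GGGCGG on either strand.
Igfbp2 promoter: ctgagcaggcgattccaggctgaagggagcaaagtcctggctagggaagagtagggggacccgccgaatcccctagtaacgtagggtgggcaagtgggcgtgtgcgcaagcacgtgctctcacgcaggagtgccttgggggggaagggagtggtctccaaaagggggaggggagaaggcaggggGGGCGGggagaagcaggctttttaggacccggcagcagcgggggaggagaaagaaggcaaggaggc
Of all 33469 RefSeq windows of this length, 30.5% hold a GC box and 42.9% hold CAGAC, the core of the SMAD-binding element, on either strand. All 10 genes have a window, and Igf2 has 2. The GC box occurs upstream of Igf2 (1 of its windows), Igf1r, Igf2r, Igfbp2 and Igfbp7. CAGAC occurs upstream of Igf2 (the same window), Igfbp5 and Igfbp7 and not in the Igfbp2 window. A match of letters is a description of the window and not a site.

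Igfbp5 is the chromosomal neighbour of Igfbp2, with no annotated gene between them in RefSeq, and its product binds IGFs in bone and muscle matrix. In Cl19 the log2 levels were 0.38, 0.79 and 0.16 on d0, none of them well above background. They were 0.17, 4.33 and 5.10 on d2, 6.12, 8.62 and 7.80 on d4 and 7.79, 8.72 and 8.23 on d6. On d6 the level was at least 58.4-fold higher than on d0, taking each d0 array at the lowest signal well above its background (adjusted p = 8.1e-07). In 3c3 the 12 arrays ranged from 0.17 to 2.32 and none was well above background, so only an upper bound can be given there. A second Igfbp5 probe at chr9:72003659-72003718 was well above background on all 3 Cl19 d6 arrays, on no Cl19 d0 array and on no 3c3 array. This probe passed the filter only through Cl19 d6, and the first only through d4 and d6 of Cl19. Their calls at d6 are therefore no independent evidence of a rise. The neighbours thus differed between the lines, since Igfbp2 rose in both and Igfbp5 was measurable in Cl19 only.

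Igfbp6 encodes a binding protein that prefers IGF-II. In 3c3 it rose from 4.74, 3.86 and 3.88 on d0 to 6.82, 6.47 and 7.17 on d2, 8.31, 7.02 and 8.41 on d4 and 9.54, 9.28 and 9.66 on d6. The d6 change was 5.34 (SE 0.38, adjusted p = 2.2e-09), or 40.4-fold, with no overlap of any later day with d0. With normexp it was 3.29. In Cl19 the levels were 6.34, 6.35 and 6.51 on d0, 6.88, 7.12 and 7.37 on d2, 6.65, 7.30 and 7.95 on d4 and 8.56, 8.95 and 7.60 on d6. This line started higher and rose less, by 1.97 at d6 (SE 0.38, adjusted p = 0.00021), or 3.92-fold.

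Igfbp3 encodes the main carrier of IGFs in serum and Igfbp4 an inhibitory binding protein that pappalysin cuts. Igfbp3 was at 10.86, 11.09 and 11.30 on d0 in Cl19, at 7.17, 7.61 and 9.21 on d2, at 9.51, 6.96 and 7.82 on d4 and at 5.18, 6.58 and 5.53 on d6. The 3c3 arrays read 10.22, 9.83 and 10.04 on d0, 6.89, 6.67 and 7.10 on d2, 10.57, 12.23 and 11.20 on d4 and 6.20, 8.98 and 8.07 on d6. In 3c3 the level thus fell by 3.15 at d2 (adjusted p = 0.0020), stood 4.45 higher on d4 than on d2 (adjusted p = 0.00056) and was 3.58 lower on d6 than on d4 (adjusted p = 0.0022). The corresponding d2 to d4 difference in Cl19 was 0.10 (adjusted p = 0.95), and the difference between the lines at d4 was not tested. From d0 to d6 Igfbp3 changed by −5.32 in Cl19 (SE 0.66, adjusted p = 1.4e-06) and −2.28 in 3c3 (SE 0.66, adjusted p = 0.0076), and the latter lost its call without 3c3 d6 replicate 1, at −1.50 (adjusted p = 0.063). With normexp the Cl19 change was −4.07. The second Igfbp3 probe gave d6 changes of −5.18 in Cl19 and −2.25 in 3c3 (adjusted p = 1.7e-06 and 0.0077).

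Igfbp4 in Cl19 stepped down from 9.95, 9.91 and 10.18 on d0 to 8.82, 9.24 and 9.0 on d2, 8.58, 8.33 and 8.53 on d4 and 8.03, 8.58 and 8.34 on d6. The d6 fall of 1.69 (SE 0.16, adjusted p = 3.7e-08) was larger than the spread in any group. In 3c3 the levels were 9.08, 8.80 and 8.90 on d0, 8.66, 8.73 and 8.70 on d2, 9.38, 9.79 and 9.29 on d4 and 8.89, 8.77 and 9.02 on d6. The 3c3 d4 level was 0.56 above d0 (adjusted p = 0.0087), and the d6 change was −0.03 with a 95% interval from −0.36 to 0.30. In 3c3 both Igfbp3 and Igfbp4 were higher on d4 than on d2, and both were lower on d6 than on d4 (Igfbp4 by 0.60, adjusted p = 0.021).

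Igfbp7 encodes a binding protein of low IGF affinity that vessels are known to express. Its probe, found by gene number after the others and from an early gene model, was at 10.65 and 10.74 in primary SMC. The 12 Cl19 arrays ranged from 0.52 to 3.02, and 2 of them measured it above background. In 3c3 3 arrays did, and the log2 levels were 3.08, 5.16 and 3.39 on d6 (the last not well above background) against 1.05, 1.32 and 1.15 on d0. With each 3c3 d0 array taken at the lowest signal well above its background, the d6 mean was 2.31-fold higher. That mean includes the array not well above background, so the value is no lower bound. The fitted d6 change in 3c3 (adjusted p = 0.00089) rests on d0 levels that were not well above background. The probe passed the filter only through primary SMC.

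**Figure D3:**
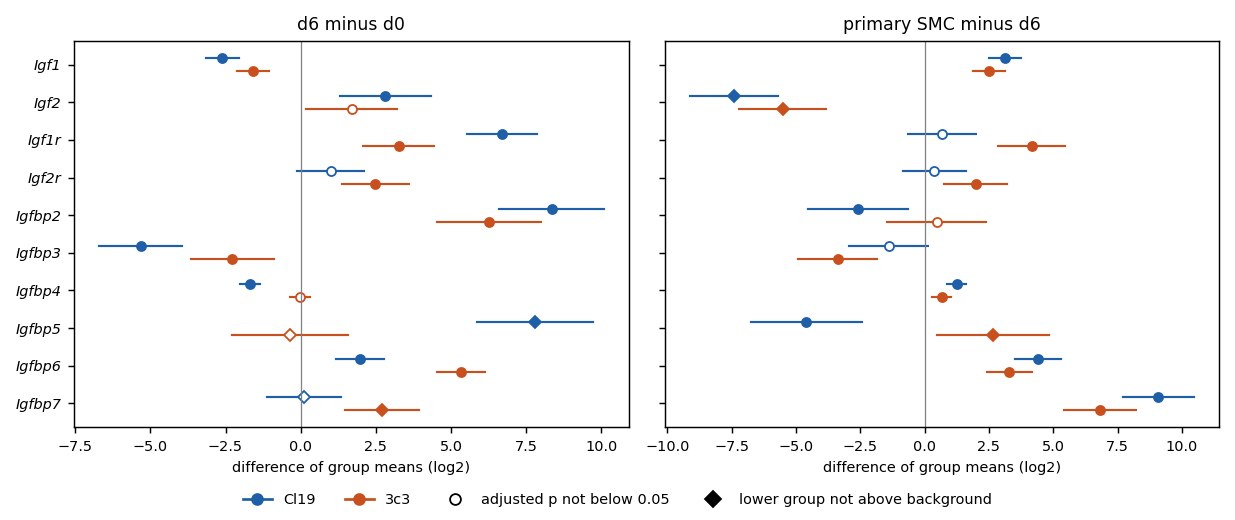
Differences of group means on the log2 scale with 95% intervals from the fit over all arrays, for d6 minus d0 (left) and primary SMC minus d6 (right), with Cl19 and 3c3 side by side and open symbols where the adjusted p was not below 0.05. Diamonds mark fitted values whose lower group had no array well above background, so they are no measured sizes. On the left Igf1r and Igfbp2 lie right of 0 and Igf1 and Igfbp3 left of 0 in both lines, and on the right Igfbp6 lies right of 0 against both.

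The d6 change itself differed between the lines for 5 of 9 members (interaction term, adjusted p under 0.05), against 17.4% of tested probes. It was larger in Cl19 by 3.44 for Igf1r (SE 0.79, adjusted p = 0.0042), and by 2.47 with normexp. Igfbp5 was also called (adjusted p = 0.00018), but it had no array well above background on Cl19 d0 or in 3c3 and passed the filter through its high Cl19 days, so the size of that difference was not measured. For Igfbp6 the difference, Cl19 minus 3c3, was −3.37 (SE 0.54, adjusted p = 0.00017) and −1.87 with normexp (adjusted p = 0.00098). Igfbp4 and Igfbp3 fell further in Cl19, with differences of −1.66 (SE 0.22, adjusted p = 3e-05) and −3.04 (SE 0.93, adjusted p = 0.028), the latter −2.26 with normexp. The Igfbp3 difference missed the threshold when any 1 of 8 of the 12 d0 and d6 arrays was left out, with values from −3.82 to −2.43 and adjusted p from 0.0037 to 0.090 over the 12. For Igf2 and Igfbp2 the lines' changes differed by 1.13 (95% interval −1.03 to 3.28) and 2.08 (−0.37 to 4.54), neither past the threshold. Without the array labelled Cl19 d2 replicate 1, 8 members differed, those added being Igf1, Igf2r and Igfbp2. The share of all tested probes in that fit is not given here, and the 17.4% is that of the fit with all arrays.

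On d0, 3 of 9 members differed between the lines, against 3.07% of tested probes, and all 3 were higher in Cl19. The differences were 3.09 for Igf2r (SE 0.53, adjusted p = 0.0019), 2.24 for Igfbp6 (SE 0.38, adjusted p = 0.0017) and 1.09 for Igfbp4 (SE 0.16, adjusted p = 0.00048), and none of these groups overlapped. The lines were scanned on different days, and line and scan day cannot be told apart here.

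Primary SMCs differed from d6 cells in opposite ways for the ligands. Igf2 was at 0.18 on both SMC arrays and not well above background. In the quantile-normalized values it was therefore at least 12.6-fold lower than in Cl19 on d6 and at least 3.38-fold lower than in 3c3 on d6 (adjusted p = 1.1e-07 and 5.5e-06). These bounds depend on the scaling. The fitted differences, over dim SMC arrays, were −7.42 and −5.52, and with scaling to the 75th percentile they were −5.56 and −3.67. With normexp the difference from Cl19 was −2.08. The call against 3c3 was lost with normexp background correction (−0.91) and with a floor on dim signals (−1.76). Igf1, at 8.96 and 8.93, was 3.12 higher than in Cl19 and 2.51 higher than in 3c3 (adjusted p = 1.1e-08 and 2.4e-07), with normexp values of 2.25 and 1.94. Igfbp6, at 12.81 and 12.77, was higher by 4.42 and 3.29 (adjusted p = 1.7e-08 and 9.5e-07). Igf1r, at 10.14 on both arrays, was 4.16 above 3c3 (adjusted p = 6.8e-06), and its difference from Cl19 was 0.68 (95% interval −0.63 to 1.99, adjusted p = 0.34). With normexp these were 3.08 and 0.62, and the latter passed the threshold (adjusted p = 0.014). Igfbp2, at 11.89 and 11.86, was 2.60 lower than in Cl19 (adjusted p = 0.017, past 0.05 and up to 0.068 with either SMC array left out), and it differed from 3c3 by 0.46 (95% interval −1.48 to 2.40). Against Cl19, 3 of 9 members were higher in SMC and 3 lower, beside 32.8% and 38.6% of tested probes. Against 3c3, 6 were higher and 2 lower, beside 33.4% and 38.1%. Both counts include Igfbp5, lower in SMC than in Cl19 and higher than in 3c3, which passed the filter only through d4 and d6 of Cl19. It was well above background on 1 SMC array and on no 3c3 array. Its call against 3c3 was lost with normexp (0.30), with a floor on dim signals (1.36) and in the deposited values without normalization (0.47). The SMC comparisons depend on the scaling, because the SMC arrays were dimmer and, in the deposited log2 values without normalization, the median probe was 2.17 lower in SMC than in Cl19 on d6 and 2.09 lower than in 3c3. In those values Igfbp4, called higher in SMC against both lines after normalization, came out lower, at −1.16 and −1.68, whereas Igf2 and Igfbp6 kept their direction and Igf1 was no longer past the threshold, at 0.61 and 0.14.

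Other genes of the pathway were read from a list of 50 genes, of which 44 had a probe and 40 were tested. In Cl19 14 of the 40 were higher on d6, beside 22.0% of all tested probes, and 8 were lower, beside 30.3%. In 3c3 14 were higher, beside 19.7%, and 7 lower, beside 28.6%, with median changes of 0.45 and 0.37 beside −0.20 and −0.21 for all tested probes. The proteases and inhibitors that act on IGFBPs included the largest rises. Plau, encoding urokinase, was not well above background on d0 and was at least 123-fold and 179-fold higher on d6 in Cl19 and 3c3, with means of 9.32 and 10.15 (adjusted p = 1.2e-13 and 4.5e-14). Plat, encoding tissue plasminogen activator, rose by 6.97 in Cl19 and 6.59 in 3c3 (adjusted p = 6.9e-10 and 2.7e-09). Of 6 tested genes in this group 3 rose and 1 fell in Cl19, and 4 rose in 3c3, to be read against the same shares. The fall was that of Htra1, from a mean of 15.70 to 8.84 in Cl19 (−6.86, SE 0.36, adjusted p = 2.9e-11). In 3c3 Htra1 changed by −0.29 (SE 0.36, adjusted p = 0.54), and no test of the difference between the lines is given here for it.

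Of the genes that fell in both lines, Insr, the insulin receptor, and Hmga2, a chromatin protein known to regulate Igf2bp2, are given by the fitted mean change. Insr went from a mean level of 4.49 in Cl19 to below background on all d6 arrays, a fall of at least 5.66-fold, and from 4.08 to 2.63 in 3c3, where 1 of 3 d6 arrays was well above background (adjusted p = 2.9e-06 and 0.016). Hmga2 was not well above background on any d6 array (adjusted p = 0.00033 in Cl19 and 0.0065 in 3c3). Its fall was at least 3.67-fold in Cl19. In 3c3 the same calculation gave 1.47-fold, which is no lower bound, because only 2 of the 3 d0 arrays were well above background. Because these falls were not fully measured, no order can be given against Igf2bp1, an Igf2 mRNA-binding protein. Every array of both days measured Igf2bp1, which changed by −1.27 and −1.89. In all 16 genes were past the threshold in both lines, 10 higher in both (Plau, Plat, Pappa, Plagl1, Grb10, Ghr, Irs2, Pik3cb, Pdpk1 and Gsk3b) and 5 lower in both (Rps6kb1, Igf2bp2, Igf2bp1, Hmga2 and Insr). The share of all tested probes past the threshold in both lines is not given here, so these counts only list genes. Grb14, an adaptor that inhibits insulin receptor signalling, rose by 1.29 in Cl19 and fell by 1.27 in 3c3 (adjusted p = 0.035 and 0.040). Only 1 of the 3c3 d6 arrays was well above background for Grb14, so the size of its fall was not fully measured. Of the receptor adaptors 5 of 7 tested rose in Cl19, beside 22.0% of all tested probes, and in 3c3 3 rose and 1 fell, beside 19.7% and 28.6%. Of 14 downstream kinases and factors 3 rose and 2 fell in Cl19, beside 22.0% and 30.3%, and 9 were not past the threshold. In 3c3 5 rose and 1 fell, beside 19.7% and 28.6%, and 8 were not past it. Igfbp1, next to Igfbp3 on the chromosome with no annotated gene between them, changed by 0.39 in Cl19 and 1.42 in 3c3 at d6 (adjusted p = 0.67 and 0.10). Between these days it stood higher in Cl19, with means of 4.23, 5.17, 8.34 and 4.62 on d0, d2, d4 and d6. The 3c3 means were 3.96, 4.43, 5.51 and 5.37, and no test of d4 is given here for Igfbp1.

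**Figure D4:**
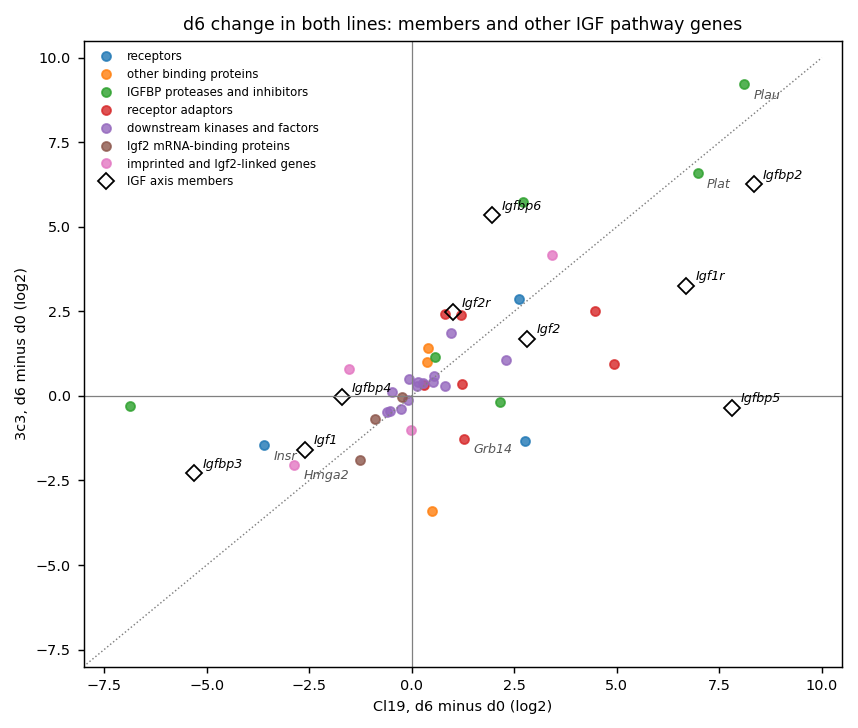
The d6 minus d0 difference of means (log2) in Cl19 against that in 3c3 for the 40 tested pathway genes (circles, coloured by list) and the 9 members (diamonds), with a dotted line of equal change. Plau, Plat and Igfbp2 lie at the upper right in both lines, Igfbp3, Insr and Hmga2 at the lower left, and Igfbp5 near 0 for 3c3, where it was not well above background.

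Markers of several other cell types also changed over the same days, and whether they moved with the members was not tested. Every count of risen or fallen markers has its background in the d6 calls of the whole array. Among tested probes, rises made up 22.0% for Cl19 and 19.7% for 3c3, while falls made up 30.3% and 28.6%. The summed log2 level of 5 visceral endoderm and liver markers was 5.0 to 5.14 on d0 and 13.17 to 14.67 on d6 in Cl19, and 5.03 to 5.88 and 12.90 to 14.04 in 3c3. Afp, Ttr, Apoa1 and Apob rose in both lines, and Alb was well above background on none of these arrays or of the SMC arrays. The summed level of 6 fibroblast and matrix markers was 13.04 to 13.77 on d6 in Cl19 and 8.40 to 10.79 in 3c3, against 17.09 to 17.10 in SMC. Of these, 4 rose in Cl19 and 1 in 3c3. Col1a1 rose in both, by 7.27 and 3.53 (adjusted p = 5.1e-09 and 5.6e-05). Lum was well above background on no d0 array, on all Cl19 d6 arrays (mean 7.67) and on no 3c3 array. Thy1 was so on no array of either line and Col3a1 on 1. All 4 epithelial markers with a probe rose in both lines, among them Cdh1 by 3.28 and 4.02 (adjusted p = 2.1e-08 and 2.9e-09), and their summed level was 17.01 to 17.11 on d0 and 17.89 to 17.98 on d6 in Cl19, 17.04 to 17.14 and 17.75 to 17.84 in 3c3, and 10.49 to 10.55 in SMC. Of 7 markers of undifferentiated rMAPCs and hypoblast 6 fell in Cl19 and 5 in 3c3, and 1 rose in each. None of 5 endothelial markers rose. Pecam1 fell in both lines (−3.72 and −2.11, adjusted p = 4.3e-05 and 0.008), and Tek was called lower in Cl19 alone (−5.36, adjusted p = 2.2e-10). Among 3 tested blood markers the sole call was a fall of Cd14 in Cl19 (−0.87, adjusted p = 0.036). The summed level of the 4 blood markers with a probe was 9.73 to 9.79 in SMC. On d6 it was 7.21 to 7.73 in Cl19 and 7.84 to 8.07 in 3c3. Cd14 (mean 9.65) and Ptprc (5.11) were well above background on both SMC arrays. Cd68 was lower there, at 4.69 against 6.75 in Cl19 and 6.87 in 3c3 on d6, and Itgam was well above background on no array. The adipocyte markers were too dim to be tested. The 7 smooth muscle markers summed to 15.90 to 16.16 on d6 in Cl19, 14.82 to 15.49 in 3c3 and 16.52 to 16.56 in SMC. These sums lie close to the means of Tagln alone, 15.85, 14.78 and 16.27, so they say little about the dimmer markers. In the same order Lmod1 had means of 5.01, 4.46 and 9.52, Myocd 1.92, 1.27 and 7.04, and Mylk 1.41, 0.84 and 6.19. Myocd and Mylk were well above background on 1 Cl19 d6 array each and on no 3c3 d6 array. Only Des had a higher d6 mean in both lines than in SMC, and no test of these gaps is given here. In each line 5 markers rose. Myocd fell in 3c3 (−1.20, adjusted p = 0.0040, well above background on 1 d0 array and no d6 array). The part of any such cells in the member changes was not tested, and in bulk RNA fewer cells of a type and less RNA per cell cannot be told apart.

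The genes whose levels were most like Igf2 over the 8 group means of the lines, among 2967 genes with a range of at least 2, were Nkx2-5 (Pearson r = 0.971), Irs4 (0.971) and Isl1 (0.969). Nkx2-5 and Isl1 encode cardiac transcription factors and Irs4 an insulin receptor substrate, and all 3 were not well above background on d0 in either line. Irs4 was well above background on no 3c3 array. On 3c3 d6 Nkx2-5 was well above background on 2 arrays and Isl1 on 1. Some of the means behind these correlations with Igf2 were therefore not measured. Those most like Igfbp2 were Ddah2 (0.994), Dact1 (0.991) and Lama5 (0.990). Ddah2 encodes an enzyme of methylarginine breakdown, Dact1 a Wnt modulator and Lama5 a laminin chain, and Lama5 went from a mean of 7.51 to 14.95 in Cl19 and from 5.90 to 12.72 in 3c3 between d0 and d6. These correlations describe 8 means that share arrays, days and normalization. The Cl19 d2 mean among them includes the array labelled Cl19 d2 replicate 1, and no ranking without it is given here.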

How the data were processed

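Total RNA was labelled with Cy3 and hybridised to Agilent Whole Rat Genome arrays, 1 sample per array, and read by the authors with Agilent Feature Extraction 10.1.1.1. The deposited scanner files hold background-subtracted, detrended intensity per feature, and the deposited log2 table equals log2 of that intensity with no normalization between arrays (largest difference 5.2e-14). Intensity of control features and outlier flags were left out, log2 values were quantile-normalized as in the study's methods, and features of a probe were then averaged. Probes well above background on all arrays of at least 1 group were tested over 26 arrays and 9 groups with limma 3.58.1 in R 4.3.3, adjusted by Benjamini-Hochberg at 0.05. SE are from that fit, and the tests were run on simulated data first. Named were all members, the pathway genes past the threshold in both lines, values being given for the 2 largest mean rises and 2 largest falls, and the 3 genes most correlated with Igf2 and with Igfbp2, from RefSeq symbols. Igfbp1, Igfbp7, Htra1 and the markers named were added after their values were seen. Replicate numbers mark slides. Deviations from group means of d0 and d6 arrays of 1 slide correlated at 0.11 or more in Cl19 and 0.29 or more in 3c3, so the numbers pair arrays. A replicate block moved the counts of probes called at d6 from 12765 to 15089 in Cl19 and from 11792 to 14308 in 3c3. The members and gene lists were chosen with earlier results of these data known. The genes were matched by symbol to RefSeq GRCr8. Alternatives were other scalings, background corrections, filters, probes, fits, tests and left-out arrays.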

Additional observations from a re-analysis of the deposited data

Results flagged for a closer look

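The d6 change differed between Cl19 and 3c3 by the interaction term of the fit for 5 members. The difference, Cl19 minus 3c3 on the log2 scale, was 3.44 for Igf1r, −3.04 for Igfbp3, −1.66 for Igfbp4 and −3.37 for Igfbp6. For Igfbp5 the fitted value of 8.15 is no measured size, since Cl19 d0 and all 3c3 arrays were not well above background, and it was 5.70 with a floor on dim signals and 2.67 with normexp. Among the pathway genes called in both lines the difference was 1.25 for Pik3cb (SE 0.32, adjusted p = 0.0094) and 2.56 for Grb14 (SE 0.70, adjusted p = 0.014). The Grb14 value rests in part on 3c3 d6, where only 1 array was well above background. The fitted values of −3.03 for Pappa (adjusted p = 8.4e-05) and −2.14 for Insr (adjusted p = 0.031) rest on a group not well above background, 3c3 d0 for Pappa and Cl19 d6 for Insr. The fitted −2.59 for the Igfbp7 probe found by gene number (adjusted p = 0.038) rests on d0 groups with no array well above background and on 1 such array on Cl19 d6, so no line difference was measured for it. With 3 arrays per group single arrays were not screened as outliers.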

How the results depend on the processing

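Of 215 counts recomputed under an alternative, 209 stayed within 1.5 times of the value in the report. Of 693 member values, 644 kept their direction and their side of the threshold, 24 lost the call, 12 gained one and 13 changed sign. In the deposited log2 values without normalization, 5 members differed between primary SMC and 3c3 on d6 (8 in the report), and signs changed for Igf1r (−1.62), Igf2r (−1.43) and Igfbp4 (−1.16) in SMC against Cl19, for Igfbp2 (−1.48) and Igfbp4 (−1.68) in SMC against 3c3, and for the d6 change in 3c3 of Igfbp4 (0.22) and Igfbp5 (0.28). With a floor on dim signals the 3c3 d6 change of Igfbp5 was 0.16. The cause was not tested. Members lower on d6 in 3c3 numbered 1 by the methods' t-test, before and after Benjamini-Hochberg adjustment, and 7 members differed between the lines on d0 by that test before adjustment (3 in the report). With the array labelled Cl19 d2 replicate 1 left out, an alternative chosen after seeing the data, 8 members differed between the lines in the d6 change (5 in the report). Shares of all tested probes under these alternatives are not given here, so these counts have no background beside them.

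With 1 array left out at a time, members lower on d6 in 3c3 ranged from 1 to 2, the lower count arising without 3c3 d6 replicate 1, where Igfbp3 lost its call. The 3c3 d6 change ranged from −0.098 to 0.045 for Igfbp4 and from −0.94 to 0.15 for Igfbp5, and SMC against 3c3 for Igfbp2 from −0.19 to 1.06. SMC against 3c3 for Igfbp5 ranged from 1.82 to 3.51 and lost its call in 3 cases.

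With the replicate block, 5 members were higher and 3 lower on d6 in Cl19, 4 higher and 2 lower in 3c3, and 6 differed between the lines, Igf1 (−1.02) being added. The block also brought the members changed over time in Cl19 to 9, Igf2r included, and changed no other call of a member. The number of arrays and the dim probes limit Igf1r on d0, Igfbp5 in 3c3 and Igfbp7 in both lines.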
